A study of Homo sapiens with 16 samples.

Results

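The mRNAs of 7 genes, ADM, ARC, ELF3, HAS3, CITED2, C12orf57 and GADD45B, were followed across NELFE knockdown, HMBA and EPZ-5676 in HCT116 cells, a human colorectal carcinoma line. The 7 were taken from a table of 60676 genes in 16 libraries. They were chosen by their log2 CPM in the libraries numbered 2, where the response to HMBA in knockdown cells departed from that in control cells. That departure is therefore given below as a description, without a test, and is not a finding about these genes. The cells carried an shRNA against NELFE (shNELFE) or a control shRNA (shCTL), and each was treated with EPZ-5676 and HMBA together, with HMBA, with EPZ-5676 or with DMSO. These 8 groups held 2 libraries each, numbered 1 and 2 in the labels. The labels give no dose, treatment time or shRNA sequence, do not say whether the knockdown was a pool or a clone, and do not mention separate cultures for the 2 libraries of a group. A difference between the 2 libraries of a group could therefore be technical. Fits of the libraries of 1 number hold 1 library per group, so the spread behind their p-values is what the fitted terms leave over. In it, product terms left out of the fit and differences between libraries cannot be told apart.

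NELFE is a subunit of NELF, negative elongation factor, and binds RNA. NELF keeps RNA polymerase II paused shortly after it starts transcription. Release from the pause needs the kinase P-TEFb, much of which is held inactive by HEXIM1 and 7SK RNA. Hexamethylene bisacetamide (HMBA) frees P-TEFb from that complex and induces HEXIM1, and EPZ-5676 (pinometostat) inhibits the histone methyltransferase DOT1L. Genes induced quickly by signals or stress are classic examples of paused genes.

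Levels are counts scaled to library totals (CPM), with the totals corrected by TMM, which sets the bulk of genes equal between libraries. The 8 libraries numbered 2 had total counts of 13428893 to 16354111, and the 8 numbered 1 of 17867037 to 21319666. A count of 3 in a library, the floor for detection, came to 0.183 to 0.223 CPM in number 2 on unscaled totals, and floors cover counting error only. The lowest count of any of the 7 genes in number 2 was 85, for ARC. NELFE stood at 15.2 to 22.1 CPM in the 4 libraries labelled shNELFE and numbered 2, against 69.6 to 83.1 in the 4 labelled shCTL. In number 1, NELFE was 13.4 CPM in the library labelled shNELFE with both compounds, but 88.0 to 157 in the other 3 labelled shNELFE, against 106 to 296 in those labelled shCTL. Each of these 3 was below its shCTL partner of the same treatment in number 1. The values were 157 against 259 CPM with DMSO, 98.2 against 106 with EPZ-5676 and 88.0 against 140 with HMBA. These 3 were also above the shCTL libraries numbered 2 (on unscaled totals, 1 of the 3), so whether they follow their label is unclear. HEXIM1 was 380 to 396 CPM in the number 2 libraries with HMBA, against 68.4 to 83.5 without it, and 348 CPM in shNELFE with both compounds numbered 1. The other 7 libraries numbered 1 held 45.6 to 79.9 CPM of HEXIM1 whether labelled HMBA or not, and stood apart from the rest, with Pearson's r of log2 CPM of 0.734 to 0.815 across genes. The account below rests on the 8 libraries numbered 2, with shNELFE with both compounds replicate 1 as a check. There is 1 library per group in number 2, so how much 2 libraries of the same group differ does not enter these fits. Of 12 epithelial markers, 9 were above 1 CPM in all 8.

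Pausing takes place just past the transcription start, so the DNA around the starts is shown for 5 of the genes, from 250 bases before to 50 bases after the first RefSeq start (GRCh38.p14). The stretches are chr11:10304823-10305122 (plus strand) for ADM, chr1:202010337-202010636 (plus strand) for ELF3, chr19:2475877-2476176 (plus strand) for GADD45B, chr16:69107290-69107589 (plus strand) for HAS3 and chr6:139374599-139374898 (minus strand) for CITED2. Each is written 5′ to 3′ on its gene's own strand, and capitals mark TATAAA, the TATA box, or CACGTG, a palindromic E box that contains ACGTG, the core of the hypoxia response motif.
ADM: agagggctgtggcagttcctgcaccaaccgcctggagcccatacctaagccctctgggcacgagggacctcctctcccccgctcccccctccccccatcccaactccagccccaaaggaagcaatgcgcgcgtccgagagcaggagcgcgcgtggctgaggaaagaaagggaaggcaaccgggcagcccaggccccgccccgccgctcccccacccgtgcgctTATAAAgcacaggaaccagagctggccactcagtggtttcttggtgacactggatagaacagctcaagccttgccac
ELF3: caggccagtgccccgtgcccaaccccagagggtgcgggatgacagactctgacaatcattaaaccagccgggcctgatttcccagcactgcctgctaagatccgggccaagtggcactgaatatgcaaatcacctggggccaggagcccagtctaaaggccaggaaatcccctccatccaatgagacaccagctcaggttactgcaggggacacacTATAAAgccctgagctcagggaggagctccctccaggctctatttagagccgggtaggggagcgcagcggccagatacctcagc
GADD45B: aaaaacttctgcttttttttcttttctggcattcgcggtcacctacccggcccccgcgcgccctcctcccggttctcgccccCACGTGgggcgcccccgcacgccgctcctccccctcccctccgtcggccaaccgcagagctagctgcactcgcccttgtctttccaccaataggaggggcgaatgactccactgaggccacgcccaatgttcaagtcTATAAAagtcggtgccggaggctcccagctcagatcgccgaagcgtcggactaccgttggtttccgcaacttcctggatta
HAS3: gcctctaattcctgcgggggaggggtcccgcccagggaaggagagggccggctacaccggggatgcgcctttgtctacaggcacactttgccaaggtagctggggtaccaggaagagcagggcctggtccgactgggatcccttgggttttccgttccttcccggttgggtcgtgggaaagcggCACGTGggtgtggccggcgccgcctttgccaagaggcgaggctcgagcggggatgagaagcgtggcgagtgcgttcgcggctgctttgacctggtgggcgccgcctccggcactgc
CITED2: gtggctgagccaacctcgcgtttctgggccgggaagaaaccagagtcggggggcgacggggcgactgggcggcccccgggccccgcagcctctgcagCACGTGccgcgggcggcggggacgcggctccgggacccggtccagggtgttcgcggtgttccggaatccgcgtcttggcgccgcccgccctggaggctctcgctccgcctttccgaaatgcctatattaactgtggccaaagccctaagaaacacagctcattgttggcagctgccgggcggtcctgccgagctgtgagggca

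TATAAA began at -27 in ADM, -34 in ELF3 and -31 in GADD45B, counted in bases from the start, which is the usual place of a TATA box. Of 34943 RefSeq start windows of the same length, 2.44% held TATAAA on the gene's strand between 45 and 15 bases before the start, and 11.6% held it anywhere on either strand. CACGTG was found in HAS3, CITED2 and GADD45B, at -66, -153 and -168, and in 7.23% of all windows. C12orf57 had TATAAA on the opposite strand, at -241. Both strands were also searched for other motifs. ACGTG (21.4% of all windows) was in C12orf57, and otherwise only within the CACGTG sites of CITED2, GADD45B and HAS3. CCAAT (34.6%) was in C12orf57, ELF3 and GADD45B, GGGCGG (44.9%) in ADM, CITED2 and HAS3, and GGAA (95.4%) in each of the 6 genes searched. The cyclic AMP response motif TGACGTCA (1.84%), its shorter form TGACG (24.5%) and the AP-1 motif TGANTCA (7.72%) were in none of the 6. The motifs to mark were picked after the letters were seen, and a match is not evidence of a bound site. ARC was left out of the search, so its start was not examined.

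On hg38 with GENCODE release 29, ADM (ENSG00000148926) lies on chromosome 11 from 10304680 to 10307397 on the plus strand, and ARC (ENSG00000198576) on chromosome 8 from 142611044 to 142614472 on the minus strand. ELF3 (ENSG00000163435) lies on chromosome 1 from 202007945 to 202017188 on the plus strand. HAS3 (ENSG00000103044) lies on chromosome 16 from 69105564 to 69118719 on the plus strand, and CITED2 (ENSG00000164442) on chromosome 6 from 139371807 to 139374620 on the minus strand. C12orf57 (ENSG00000111678) lies on chromosome 12 from 6942978 to 6946003 and GADD45B (ENSG00000099860) on chromosome 19 from 2476122 to 2478259, both on the plus strand.

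The departure from additivity that chose the genes is the HMBA response in shNELFE cells minus the HMBA response in shCTL cells, on the log2 scale and averaged over EPZ-5676. It was positive for all 7, at 2.58 (SE 0.19) for ARC, 2.46 (SE 0.16) for ADM, 1.41 (SE 0.14) for ELF3, 1.19 (SE 0.14) for HAS3, 1.08 (SE 0.13) for CITED2, 1.06 (SE 0.15) for GADD45B and 0.89 (SE 0.12) for C12orf57. With edgeR's quasi-likelihood test, 36 of 14808 genes passed an adjusted p of 0.05 (0.243%), 34 of them in the positive direction (0.23%). The 7 are among the 36 by choice, at ranks 1, 2, 3, 7, 10, 11 and 13 by p-value. Genes that are not members, among them MYC, DUSP2, CCN2, CDKN1C and JUNB, held the ranks between them, so the list is not the top of the ranking. The same positive departure covers 3 different patterns of levels, grouped here after the values were seen.

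**Figure D1:**
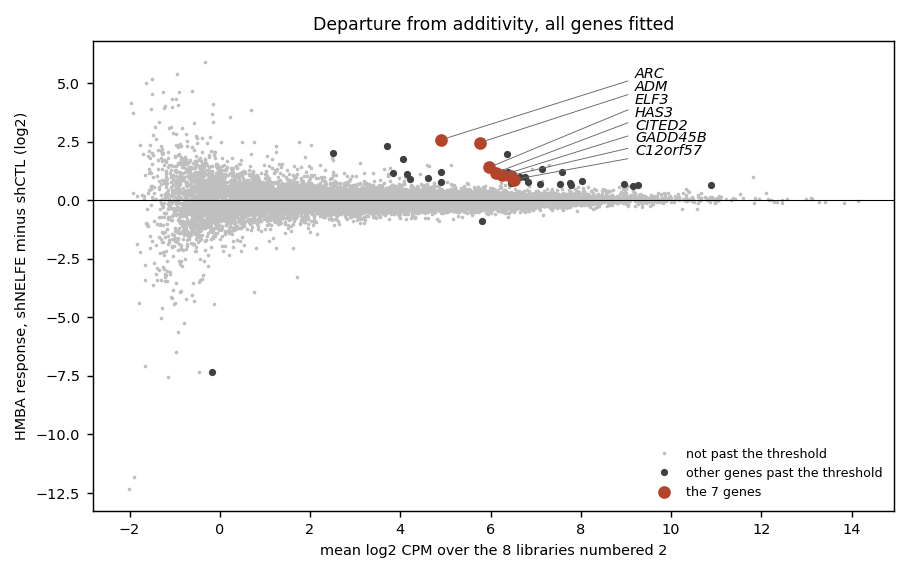
HMBA response in shNELFE minus HMBA response in shCTL (log2, vertical axis) against mean log2 CPM over the 8 libraries numbered 2 (horizontal axis) for 14808 genes. Grey points did not pass an adjusted p of 0.05 and dark points are the 29 other genes that did. The 7 chosen genes (red) lie between 0.89 and 2.58, all above 0, as their choice requires.

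In the first pattern, ADM and HAS3 were lower with HMBA in control cells, and the difference was smaller or not seen in knockdown cells. ADM encodes adrenomedullin, a vasodilator peptide known to be induced by hypoxia. With HMBA, ADM was 77.0 CPM with EPZ-5676 and 83.6 CPM without it in shNELFE cells, against 17.3 and 18.1 CPM in shCTL cells. Without HMBA, it was 71.4 CPM with EPZ-5676 and 68.9 CPM without it in shNELFE cells, against 94.1 and 76.4 CPM in shCTL cells. The 2 shCTL libraries with HMBA were thus low and the other 6 libraries lay together well above them. The fitted HMBA response of ADM was 0.20 (SE 0.10) in shNELFE and -2.27 (SE 0.12) in shCTL cells on the log2 scale, the second a 4.82-fold lower level. On unscaled totals the shNELFE response was -0.06, so its direction depends on scaling. Unscaled totals moved the median of all genes for HMBA in shNELFE cells to -0.25. With HMBA, ADM was 4.55-fold higher in shNELFE than in shCTL cells.

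HAS3 encodes hyaluronan synthase 3, a membrane enzyme that makes the extracellular polysaccharide hyaluronan. With HMBA, HAS3 was 48.2 CPM with EPZ-5676 and 84.2 CPM without it in shNELFE cells, against 26.4 and 42.4 CPM in shCTL cells. Without HMBA, HAS3 was 82.1 CPM with EPZ-5676 and 114 CPM without it in shNELFE cells, against 87.5 and 152 CPM in shCTL cells. Unlike ADM, HAS3 was lower with HMBA for both shRNAs, and every library with EPZ-5676 lay below its partner without it. The fitted HMBA response was -0.60 (SE 0.10) in shNELFE cells, which is 1.51-fold lower, and -1.79 (SE 0.10) in shCTL cells, which is 3.46-fold lower.

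In the second pattern, ARC, CITED2 and GADD45B were higher with HMBA for both shRNAs, and more so in knockdown cells. ARC encodes a cytoskeleton-associated protein best known as an immediate early gene of active neurons. With HMBA, ARC was 294 CPM with EPZ-5676 and 362 CPM without it in shNELFE cells, against 57.5 and 56.8 CPM in shCTL cells. In the absence of HMBA, ARC was 6.22 CPM with EPZ-5676 and 6.15 CPM without it in shNELFE cells, against 5.84 and 7.12 CPM in shCTL cells. The 4 libraries without HMBA lay close together, and with HMBA the shNELFE libraries were the higher. ARC was 52.9-fold higher with HMBA in shNELFE cells (log2 5.72, SE 0.12) and 8.84-fold higher in shCTL cells (log2 3.14, SE 0.13).

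CITED2 encodes a transcriptional regulator that binds CBP and p300 and competes for them with the hypoxia factor HIF-1. With HMBA, CITED2 was 200.02 CPM with EPZ-5676 and 150.3 CPM without it in shNELFE cells, against 82.2 and 59.6 CPM in shCTL cells. Without HMBA, CITED2 was 68.4 CPM with EPZ-5676 and 48.2 CPM without it in shNELFE cells, against 62.5 and 37.8 CPM in shCTL cells. The shNELFE libraries with HMBA were the highest. Without HMBA the ranges of the shRNAs overlapped, but shNELFE was the higher both with EPZ-5676 and without it. The fitted shNELFE minus shCTL difference of CITED2 was 1.31 (SE 0.09) with HMBA and 0.23 (SE 0.10) without it. Its fitted HMBA response was 1.59 (SE 0.09) in shNELFE and 0.52 (SE 0.10) in shCTL cells, or 3.02-fold and 1.43-fold higher.

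GADD45B encodes a small stress-response protein that activates the kinase MAP3K4. With HMBA, GADD45B was 347 CPM with EPZ-5676 and 334 CPM without it in shNELFE cells, against 211 and 202 CPM in shCTL cells. In the absence of HMBA, GADD45B was 23.7 CPM with EPZ-5676 and 27.7 CPM without it in shNELFE cells, against 28.6 and 36.6 CPM in shCTL cells. The shNELFE libraries were thus above the shCTL ones with HMBA and below them without it. Without HMBA the nearest values, 27.7 and 28.6 CPM, lay close together and came from libraries that also differ in EPZ-5676. A crossing in this direction goes with the departure that chose the genes, and its share over all genes was not counted. The fitted shNELFE minus shCTL difference was 0.72 (SE 0.10) with HMBA and -0.34 (SE 0.12) without it.

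In the third pattern, ELF3 and C12orf57 were, in the libraries numbered 2, lower in knockdown cells without HMBA and close to control levels with it. ELF3 encodes an ETS-family transcription factor of epithelial cells. With HMBA, ELF3 was 75.6 CPM with EPZ-5676 and 84.1 CPM without it in shNELFE cells, against 75.3 and 78.7 CPM in shCTL cells. Without HMBA, ELF3 was 27.0 CPM with EPZ-5676 and 35.7 CPM without it in shNELFE cells, against 77.8 and 82.7 CPM in shCTL cells. The 2 shNELFE libraries without HMBA were low, and the other 6 spanned only 75.3 to 84.1 CPM. The fitted shNELFE minus shCTL difference was 0.05 (SE 0.10) with HMBA and -1.36 (SE 0.10) without it, the second a 2.57-fold lower level.

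C12orf57 encodes a small protein whose gene is mutated in a human brain malformation syndrome. With HMBA, C12orf57 was 174 CPM with EPZ-5676 and 182 CPM without it in shNELFE cells, against 162 and 161 CPM in shCTL cells. In the absence of HMBA, C12orf57 was 39.8 CPM with EPZ-5676 and 35.8 CPM without it in shNELFE cells, against 63.8 and 63.4 CPM in shCTL cells. The level was higher with HMBA for both shRNAs, and the larger response in shNELFE cells went with a lower level before it. The fitted shNELFE minus shCTL difference was 0.14 (SE 0.08) with HMBA and -0.75 (SE 0.09) without it.

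**Figure D2:**
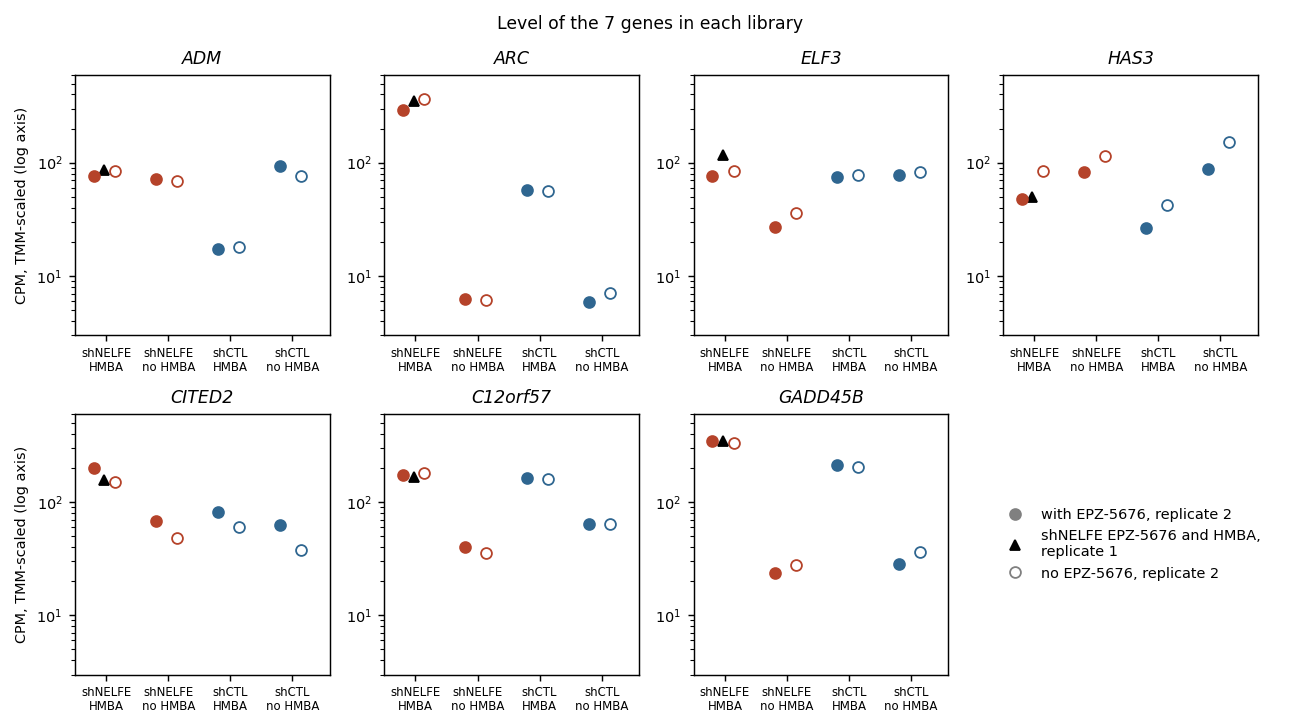
Level of each of the 7 genes (TMM-scaled CPM, log axis) in the 8 libraries numbered 2, by shRNA and HMBA, with EPZ-5676 (filled) and without it (open). The triangle is shNELFE with both compounds, replicate 1. ADM is low only in shCTL with HMBA (17.3 and 18.1 CPM), ELF3 only in shNELFE without HMBA (27.0 and 35.7 CPM), and ARC is highest in shNELFE with HMBA (294 to 362 CPM).

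The departure was present with and without EPZ-5676 in single libraries, taken as differences of log2 CPM (prior count 2). For ADM it was 2.54 with EPZ-5676 and 2.35 without it, for ARC 2.27 and 2.88, for ELF3 1.53 and 1.31, and for HAS3 0.96 and 1.405. For CITED2 it was 1.15 with EPZ-5676 and 0.98 without it, for C12orf57 0.78 and 1.00, and for GADD45B 0.99 and 1.13. No gene changed sign between these arms, and neither arm was larger throughout. Both arms were among the values that chose the genes.

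**Figure D3:**
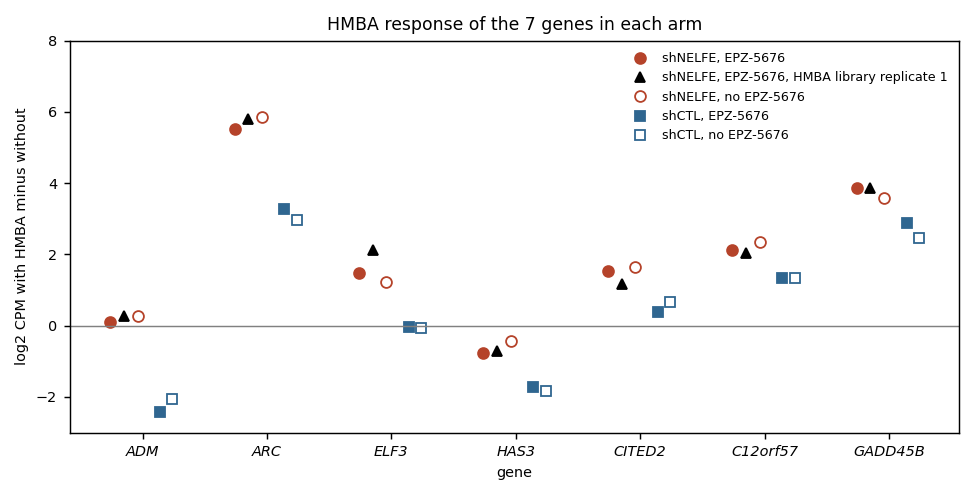
Difference in log2 CPM with HMBA minus without (vertical axis) for each gene, in shNELFE (red circles) and shCTL (blue squares), with EPZ-5676 (filled) and without it (open), in libraries numbered 2. Triangles use replicate 1 of shNELFE with both compounds in place of replicate 2. For each gene the shNELFE points lie above the shCTL points, as the choice of the genes requires, for ADM at 0.11 and 0.28 against -2.43 and -2.07.

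The library of shNELFE with both compounds numbered 1 was not used to choose the genes and gives the one measure of how far 2 libraries of a group lie apart. Replicate 1 minus replicate 2 was 0.17 for ADM, 0.25 for ARC, 0.63 for ELF3, 0.06 for HAS3, -0.37 for CITED2, -0.08 for C12orf57 and -0.01 for GADD45B on the log2 scale. The median absolute difference over 14808 genes was 0.359 and the 90th percentile 0.906. ELF3 and CITED2 thus differed by more than the median gene, and the other 5 by less. ELF3 stood at 117 CPM in replicate 1, against 75.6 in replicate 2 and 75.3 to 78.7 in shCTL with HMBA numbered 2. With HMBA and EPZ-5676, ELF3 in shNELFE was thus close to the control level in replicate 2 and above it in replicate 1. With replicate 1 in place of replicate 2 in the fit, its shNELFE minus shCTL difference with HMBA was 0.39, against 0.05. With replicate 1 in the EPZ-5676 arm, the departure was 2.72 for ADM, 2.52 for ARC, 2.16 for ELF3, 1.02 for HAS3, 0.78 for CITED2, 0.70 for C12orf57 and 0.98 for GADD45B. All 7 remained positive, but 3 of the 4 libraries in that difference are those that chose the genes. With replicate 1 in place of replicate 2 in the fit, 3 genes passed an edgeR adjusted p of 0.05, ADM, ARC and the phosphatase gene DUSP2. With it as a ninth library, 2 genes passed, ADM and ARC, and the biological coefficient of variation was 0.133, against 0.0747 in the 8 libraries. As 7 of the 8 libraries in the first of these fits and 8 of the 9 in the other chose the genes, which of the 7 passed is a description and no test.

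**Figure D4:**
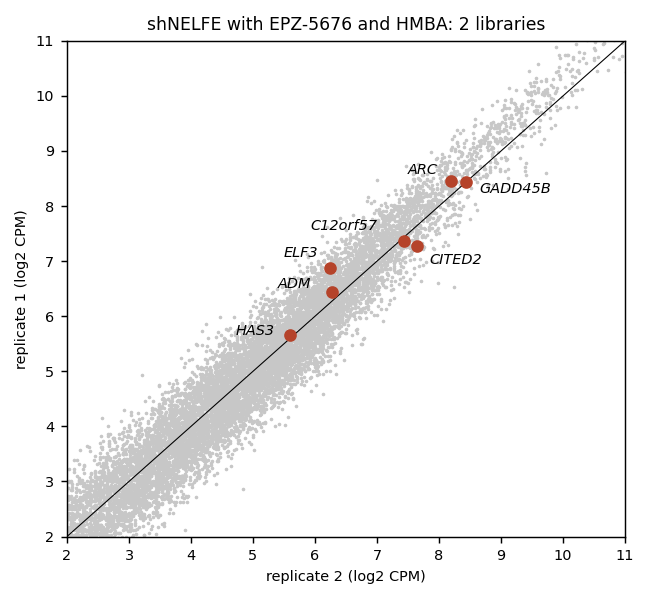
Log2 CPM of all fitted genes in the 2 libraries of shNELFE with both compounds, replicate 1 (vertical axis) against replicate 2 (horizontal axis), with a line of equality and the 7 genes in red. Pearson's r across genes was 0.977, and ELF3 lies farthest from the line among the 7, at 0.63 above it.

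The 8 libraries numbered 1 were not used to choose the genes, but 7 of them stand apart. In these 7, ADM ranged from 0.209 to 37.6 CPM, ARC from 1.84 to 16.7, ELF3 from 0.110 to 230.3 and HAS3 from 1.501 to 8.33. CITED2 ranged from 44.9 to 102.7 CPM, C12orf57 from 67.1 to 114, and GADD45B from 21.5 to 65.7. ARC, HAS3 and GADD45B levels in these 7 thus lay far below the highest levels in number 2. In the fit of number 1, the departure was positive for all 7 genes, from 0.52 (SE 0.82) for C12orf57 to 8.59 (SE 4.22) for ADM. Its unadjusted p ran from 0.0941 for ADM to 0.753 for ELF3, and the edgeR adjusted p was 1 for each. With edgeR, 0 of 16637 genes passed (0%), 159 had an unadjusted p under 0.05, DESeq2 called 214 and limma-voom 0. The 1 library with HMBA and knockdown that matches its label is in the positive term of that difference, so the sign cannot be told apart from the standing of the other 7. Over all 16 libraries the departure ran from 0.57 for C12orf57 to 3.17 for ARC, and 0 of 17625 genes passed by edgeR's test (0%), against 49 with an unadjusted p below 0.05, 16 called by DESeq2 and 0 by limma-voom.

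EPZ-5676 was not part of the choice of the genes, so its effect was tested. The test used the same 8 libraries and the same residual spread as the departure, so it is not fully independent of the choice. HAS3 fell and CITED2 rose with EPZ-5676, each in 4 of 4 pairs of libraries that differ in EPZ-5676 alone. In those pairs, HAS3 was 48.2 against 84.2 CPM in shNELFE with HMBA, 82.1 against 114 in shNELFE without it, 26.4 against 42.4 in shCTL with HMBA and 87.5 against 152 in shCTL without it. The fitted effect on HAS3 was -0.69 (SE 0.07) on the log2 scale, or 1.61-fold lower, with an edgeR adjusted p of 9.19e-05. CITED2 was 200.02 against 150.3 CPM in shNELFE with HMBA, 68.4 against 48.2 in shNELFE without it, 82.2 against 59.6 in shCTL with HMBA and 62.5 against 37.8 in shCTL without it. Its fitted effect was 0.52 (SE 0.07), or 1.43-fold higher, with an edgeR adjusted p of 6.12e-04. So 2 of the 7 genes passed, against 5.01% of 14808 genes, of which 1.86% were higher and 3.15% lower.

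The call on CITED2 was lost when replicate 1 of shNELFE with both compounds took the place of replicate 2 (edgeR adjusted p 0.0934), as a ninth library (0.155), and in the fit without the shRNA by HMBA term (0.0870). HAS3 passed in each of these and in the other alternatives, with a highest adjusted p of 0.0405. ELF3 was lower with EPZ-5676 in 4 of 4 pairs at -0.17 (SE 0.07) but did not pass (adjusted p 0.186). The effect was 0.06 (SE 0.08) for ADM, -0.15 (SE 0.08) for ARC, 0.02 (SE 0.06) for C12orf57 and -0.09 (SE 0.08) for GADD45B, with pairs in both directions and edgeR adjusted p from 0.308 to 0.890. Whether the EPZ-5676 effect depended on HMBA was tested by a product term, which called 279 genes (1.88%) and 0 of the 7. GADD45B came nearest among the 7, at 0.35 (SE 0.11) with an unadjusted p of 0.00484 and an edgeR adjusted p of 0.111. In that fit its EPZ-5676 effect was 0.06 (SE 0.07, adjusted p 0.663) with HMBA and -0.29 (SE 0.09, adjusted p 0.0425) without it, a gap that the product term did not call. The effect with HMBA passed for HAS3 and CITED2, 2 of the 7, against 7.08% of all genes, and the effect without HMBA for these and GADD45B, 3 of the 7, against 8.56%. The product of shRNA and EPZ-5676 called 2 genes (0.0135%) and 0 of the 7, with 284 genes at an unadjusted p under 0.05 and 2 called by DESeq2. Its values for the 7 ran from -0.19 for ELF3 to 0.12 for HAS3, with edgeR adjusted p of 1.00 for each.

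**Figure D5:**
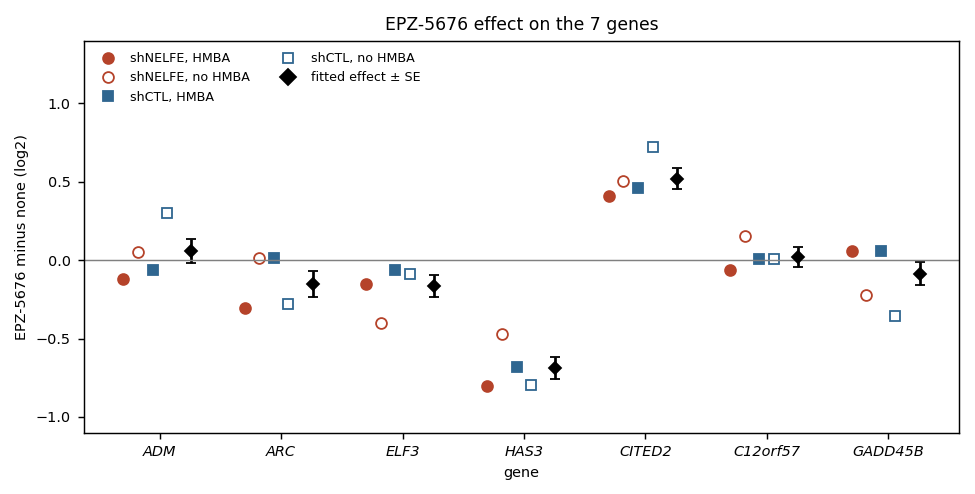
Difference in log2 level with EPZ-5676 minus without (vertical axis) for each gene in 4 pairs of libraries numbered 2, in shNELFE (red circles) and shCTL (blue squares), with HMBA (filled) and without it (open). Black diamonds are the fitted effect with its SE. HAS3 lies below 0 and CITED2 above 0 in 4 of 4 pairs.

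Averaged over shRNA and EPZ-5676, ARC, GADD45B, C12orf57, CITED2 and ELF3 were higher with HMBA, and HAS3 and ADM were lower. The effect was 4.43 (SE 0.09) for ARC, 3.20 (SE 0.08) for GADD45B, 1.79 (SE 0.06) for C12orf57, 1.06 (SE 0.07) for CITED2, 0.65 (SE 0.07) for ELF3, -1.04 (SE 0.08) for ADM and -1.19 (SE 0.07) for HAS3, with a highest edgeR adjusted p of 1.17e-06, for ELF3. HMBA passed for 71.2% of all 14808 genes, 35.1% higher and 36.1% lower, and for 7 of the 7, 5 higher and 2 lower. Each value is the mean of the HMBA responses of both shRNAs, whose gap chose the genes, so nothing is read from that count. On unscaled totals the median of all genes was -0.22 and 32.9% of called genes were higher, against 49.3% with TMM scaling, and all 7 kept their direction. For ADM and ELF3 the average combines 1 shRNA with a large response and 1 with little. Mitochondrial genes took 8.87% to 10.1% of counts in libraries with HMBA, against 6.12% to 6.90% in the others. The summed level of 6 leukocyte markers was 8.29 to 20.7 CPM in libraries with HMBA and 0.395 to 0.618 in those without, with CD3E at 0 in all 8 libraries. That of 5 endothelial markers was 11.6 to 15.5 and 2.44 to 3.71, that of 12 mesenchymal markers 67.0 to 110.9 and 36.6 to 70.9, and that of 12 epithelial markers 5006 to 5775 and 4777 to 6378 CPM. The part of these in the HMBA response was not tested. In RNA from whole cultures, more cells of a kind and more RNA per cell cannot be told apart.

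Averaged over both compounds, shNELFE minus shCTL was 1.22 (SE 0.09) for ARC, 0.95 (SE 0.08) for ADM, 0.77 (SE 0.07) for CITED2 and 0.34 (SE 0.07) for HAS3. It was -0.66 (SE 0.07) for ELF3 and -0.31 (SE 0.06) for C12orf57, and for GADD45B 0.19 (SE 0.08). With edgeR, 6 of the 7 passed, 4 higher and 2 lower, against 14.7% of all genes, 6.39% higher and 8.27% lower, and GADD45B did not (adjusted p 0.114). Each is the mean of the differences with and without HMBA, whose gap chose the genes, so nothing is read from that count. The calls on ELF3, HAS3 and C12orf57 were lost with the ninth library (adjusted p 0.0763 to 0.0827), and those on ADM, ELF3, HAS3 and C12orf57 in the fit without the shRNA by HMBA term (0.0586 to 0.302).

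The relatives and pathway partners of the 7 were then examined for the same departure, from lists drawn up with earlier results of these data known. Of all 14808 genes, 0.243% passed for the departure, 0.23% in the positive direction, so 0 in a short list is near that share. Among immediate early genes, which signals induce without new protein, 3 of 29 measured genes other than ARC and GADD45B had a positive departure past the threshold and 0 a negative one, with a list median of 0.30 against -0.01 over all genes. CCN2, a matricellular growth factor gene, was 826 and 735 CPM with HMBA in shNELFE cells (with and without EPZ-5676), against 395 and 315 CPM in shCTL cells. Without HMBA it was 13.1 and 12.6 CPM in shNELFE cells, against 13.7 and 13.2 CPM in shCTL cells. CCN2 thus showed the pattern of ARC, with a departure of 1.21 (SE 0.14) and an edgeR adjusted p of 0.00150. JUNB, an AP-1 subunit gene, had 1.01 (SE 0.14, adjusted p 0.00564), and DUSP1, a MAP kinase phosphatase gene, had 1.15 (SE 0.19, adjusted p 0.0200). FOS, another AP-1 subunit gene, had 1.51 (SE 0.32) and did not pass (adjusted p 0.0846). With HMBA itself, 24 of the 29 rose and 4 fell, at a median of 1.57, beside 35.1% higher and 36.1% lower of all genes.

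Of 22 measured hypoxia-induced genes other than ADM and CITED2, 0 had a departure past the threshold, beside 0.243% of all genes. The list median was 0.06. Averaged over the compounds, 13 of the 22 were lower and 1 higher in shNELFE than in shCTL cells, at a median of -0.28, beside 8.27% lower and 6.39% higher of all genes. CA9, a carbonic anhydrase gene used as a hypoxia marker, was 1.76 to 2.56 CPM in shNELFE and 4.78 to 5.63 CPM in shCTL cells, and VEGFA, the vascular growth factor gene, was 53.4 to 61.4 and 55.1 to 71.2 CPM. ANGPTL4, which encodes a secreted inhibitor of lipoprotein lipase, had the smallest p on this list for the departure, at 1.11 (SE 0.23) with an edgeR adjusted p of 0.0846. Its levels without HMBA were 8.82 and 15.8 CPM in shNELFE cells (with and without EPZ-5676), against 23.98 and 24.4 CPM in shCTL cells, and with HMBA 23.2 and 34.2 against 24.9 and 27.5 CPM. These levels follow the pattern of ELF3.

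No measured paralog of the 7 passed for the departure, beside 0.243% of all genes, so the paralogs were near that share. HAS1 had 0 counts in all 8 libraries and HAS2 at most 0.0759 CPM, below the floor of 3 counts, so HAS3 was the one hyaluronan synthase mRNA above the floor. The hyaluronan list had 0 of 9 genes past the threshold, beside the same share of all genes. GADD45A, a relative of GADD45B, rose with HMBA (2.42, SE 0.09, edgeR adjusted p 1.66e-11) with a departure of -0.06 (SE 0.18). Its level with HMBA was 111 and 104 CPM in shNELFE (with and without EPZ-5676), against 101.4 and 79.0 CPM in shCTL cells. GADD45G was 0.317 to 1.67 CPM in shNELFE and 0.264 to 0.921 CPM in shCTL cells. CITED1 was 0.645 to 1.07 CPM in shNELFE and 0.329 to 0.893 CPM in shCTL cells, and CITED4 0.586 to 4.18 and 2.37 to 6.64 CPM. ADM2 had a departure of -0.77 (SE 0.40, adjusted p 0.692), opposite in sign to that of ADM.

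EHF, ELF1, ELF2 and ELF4, ETS relatives of ELF3, fell with HMBA. EHF, another epithelial ETS factor gene, was 9.65 to 14.04 CPM with HMBA and 62.2 to 88.9 CPM without it in shNELFE cells, and 12.8 to 15.6 and 62.5 to 90.2 CPM in shCTL cells. Its HMBA effect was -2.54 (SE 0.08, edgeR adjusted p 2.49e-12) and its departure -0.26 (SE 0.16, adjusted p 0.761). ELF1, ELF2 and ELF4 had HMBA effects of -1.61, -2.004 and -1.38, and all 3 passed with edgeR. ELF5 was at or under 1.45 CPM. Of 16 measured ETS factors other than ELF3, 0 had a departure past the threshold, and HMBA raised 2 and lowered 10, beside the same 35.1% and 36.1% of all genes. The same count was 0 of 8 for CITED partners, 0 of 12 for GADD45 relatives and stress kinases, 0 of 4 for adrenomedullin ligands and receptors and 0 of 20 for pausing and P-TEFb genes. Each of these counts, that of the ETS factors included, stands beside 0.243% of all genes and is near that share. Adding the lists does not count distinct genes, since some genes stand on more than one. HEXIM1 was among the last list, with a departure of 0.29 (SE 0.11, adjusted p 0.533).

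Genes beside the 7 were examined because reads from overlapping genes can be shared, and no source used here gives the strand setting of the counts. CHTF8 overlaps the end of HAS3 on the other strand and was 137.7 to 156 CPM in shNELFE and 104.8 to 158 CPM in shCTL cells, with a departure of 0.04 (SE 0.19). ELF3-AS1 overlaps the GENCODE start of ELF3 on the other strand. ELF3-AS1 starts at 202010463, inside the stretch shown for ELF3 and before its RefSeq start, and runs away from that start to 201995696. It was 0.826 to 4.16 CPM in shNELFE and 1.38 to 7.97 CPM in shCTL cells, with a departure of 0.20 (SE 0.45). AMPD3 starts 916 bases past the end of ADM and had a departure of -0.11 (SE 0.24). ATN1 and PTPN6, 657 and 465 bases from C12orf57, had departures of -0.05 (SE 0.19) and -0.22 (SE 0.15). PTPN6 rose with HMBA (1.48) and ATN1 fell (-0.64). Including RNPEP beside ELF3, UTP4 and TANGO6 beside HAS3, and U47924.2, which overlaps C12orf57, the departure passed for 0 of these 9 neighbours, with edgeR adjusted p from 0.790 to 0.992. Of all genes, 0.243% passed, so 0 of 9 is near that share. The small RNU7-1 gene inside C12orf57 had 0 counts.

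Levels of the 7 over the 8 libraries were also compared with each other and with 3457 other genes that had a mean of at least 5 CPM and a range of at least 1 log2 unit. These are Pearson's r of log2 CPM over 8 libraries that share the design, given as a description. ARC and GADD45B had an r of 0.971, C12orf57 and GADD45B 0.967, ADM and HAS3 0.778, and ADM and ELF3 -0.19. TNFSF9, a TNF-family ligand gene, was among the genes most like ARC (0.989). Those most like GADD45B were TPBG (0.996) and MKNK2 (0.996), those most like C12orf57 PNP (0.997) and NDST2 (0.994), and those most like CITED2 NUDT16L1 (0.992) and H2AC25 (0.991). For ELF3 they were ANGPTL4 (0.946) and TBC1D10A (0.913), and for HAS3 DSC2, a desmosomal cadherin gene (0.953), and TRIB1 (0.951). ADM had the least close partners, BIK, a BH3-only apoptosis gene (0.907), and TERT, the telomerase subunit gene (0.898). BIK was 7.67 and 8.01 CPM with HMBA in shNELFE cells (with and without EPZ-5676), against 3.49 and 3.64 CPM in shCTL cells, and without HMBA 9.64 and 11.96 against 8.66 and 11.7 CPM. Of the genes named here for their likeness, TNFSF9, MKNK2 and PNP had a departure past the threshold, at 1.14, 0.70 and 0.69, and are among the 36.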

How the data were processed

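Poly(A) RNA of HCT116 cells was sequenced from 16 libraries prepared with a stranded TruSeq kit, per the labels' protocols. The authors deposited 1 table of raw read counts per Ensembl gene (60676 genes, 0 columns not assigned to a sample, 0 pairs of identical libraries). STAR 2.4.0b, Cufflinks 2.1.1, HTSeq 0.6.1p1, edgeR and the hg38 build are named in the submitters' processing notes, without roles. Annotation release and strand setting: not given in the sources used here. A symbol was matched to 42009 identifiers.

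Groups followed the sample titles. The 8 libraries numbered 2 were fitted with edgeR 4.0.16 (R 4.3.3, limma 3.58.1), using TMM, filterByExpr and a quasi-likelihood F-test with Benjamini-Hochberg adjustment over all 14808 genes tested at 0.05. Terms were shRNA, HMBA, their product and EPZ-5676, leaving 3 residual degrees of freedom. Each further product term was added alone, leaving 2. Number 1 had the same terms (16637 genes), and all 16 libraries were fitted with a mean per group (17625 genes, 8 residual degrees of freedom). Log2 CPM had a prior count of 2. TMM factors for levels were set to a geometric mean of 1 over number 2. A library was taken to stand apart by its correlations with the rest. The code was tested on simulated counts for the 8 libraries, drawn with the spread of their own fit and with no other product terms. The biological coefficient of variation was 0.0747 in that fit and 0.133 with the ninth library. The simulated counts may thus be an easier setting than these data. There the shRNA by HMBA term recovered 28%, 66%, 84% and 88% of genes changed 1.5-, 2-, 4- and 8-fold, with 12 unchanged genes called (14646 genes), and the EPZ-5676 term 80%, 90%, 98% and 100%, with 10 called (14618 genes).

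The 7 genes, the lists, the patterns and the choice of number 2 were made with earlier results of these data known. Genes named were the 7, NELFE, HEXIM1, the 2 most alike genes per member, neighbours, paralogs and up to 3 list genes by p. CA9, VEGFA, FOS and the genes ranked among the 36 were named after their values were seen. A few genes that these rules name are not reported here. Same-numbered libraries were checked for pairing by correlating their deviations from group means. Alternatives were RLE scaling, unscaled totals, no filter, DESeq2 1.42.0, limma-voom, no product term, the replicate number as a block, leaving out each library, and replicate 1 of shNELFE with both compounds in place of replicate 2. Its use as a ninth library was added after the data were seen. Sequences are from RefSeq (GRCh38.p14).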

Additional observations from a re-analysis of the deposited data

How the results depend on the processing

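The departure of the 7 genes stayed positive under every alternative run on number 2, from 0.80 (C12orf57 without shNELFE DMSO replicate 2) to 2.71 (ARC with replicate 1 of shNELFE with both compounds in place of replicate 2). The HMBA effect kept its direction and call for the 7 under all alternatives. The number of genes past the threshold for the departure was 36, against 159 without a filter, 58 with DESeq2, 3 with that replaced library, 2 with the ninth library (chosen after seeing the data) and 20 to 105 when a library was left out, lowest without shNELFE EPZ-5676 replicate 2 and highest without shNELFE EPZ-5676 and HMBA replicate 2. For EPZ-5676 it was 742, against 1181 without a filter, 490 with DESeq2, 189 with the replaced library, 16 with the ninth and 269 to 892 leaving out a library. For the shRNA it was 2170, against 1291 with the replaced library, 340 with the ninth and 1131 to 2323 leaving out a library. The product of EPZ-5676 and HMBA had 279, against 154 on unscaled totals, 29 with DESeq2, 0 with the replaced library (745 at an unadjusted p under 0.05 with edgeR) and 187 to 806 leaving out a library. That of shRNA and EPZ-5676 had 2, against 0 with RLE scaling and with the replaced library, 31 without a filter and 3 to 44 leaving out a library. DESeq2 called 16 over all 16 libraries and 214 in number 1, where edgeR called 0. The cause was not tested. The EPZ-5676 effect on C12orf57 turned to -0.0204 without shNELFE DMSO replicate 2 and -0.0200 without shNELFE EPZ-5676 replicate 2, and that on ADM to -0.0412 without shCTL DMSO replicate 2 and -0.0410 without shCTL EPZ-5676 replicate 2, with highest values of 0.0502 and 0.121 when another library was left out, neither called in any fit. GADD45B passed for the shRNA without shNELFE HMBA replicate 2 (edgeR adjusted p 0.0381). Deviations of same-numbered libraries correlated above 0.1 in 25 of 28 pairs of groups (0.0838 to 0.960), and 15 of 16 libraries were closest to one of the same number, a hint from the data and not from the design. The numbers were not taken to pair the samples, since the labels name no shared batch and not every pair of groups exceeded 0.1. With the replicate block over 16 libraries edgeR called 0 genes for the departure, as without it. In number 2 a single library per group limits what any fit can show. The biological coefficient of variation was 0.133 with the ninth library and 0.0747 without it.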
